A study of Homo sapiens with 10 samples.

Results

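Persister cells are the cells that survive a drug without having become a resistant population, and among the Kuramochi cells that survived 320 µM olaparib some still had a cell cycle programme. These cycling persister cells are compared here with the G1 persister cells of the same culture condition. A cell of the 320 µM persister condition was called G1 when it appeared in the authors' deposited table of G1 cells and cycling when it was absent from that table. Of 1348 persister cells, 310 were cycling (158 in pool 1 and 152 in pool 2) and 1038 were G1 (584 in pool 1 and 454 in pool 2), out of 13800 cells in the whole data set. The basis of the G1 table is not given in the sources used here.

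Kuramochi is a human epithelial cell line of high-grade serous ovarian cancer that the labels give as BRCA2-mutant. The 320 µM persister cells had been kept in 320 µM olaparib for 9 days. The 320 µM adapted cells were a resistant population at that dose, and the control cells were untreated cells of the same line. The series also holds persister and adapted cells of this line at 10 µM olaparib. Their sums entered the shared fit, so they bear on the scaling and the spread, but their genes are not compared here. Every group is therefore BRCA2-mutant, and all come from 1 line. Cells of each condition carried antibody hashtags and were mixed into 2 pools before droplet capture, and each pool is given as 4 expression samples over which its cells are not assigned here. The labels give the pools as 2 replicates of each condition without saying whether they came from separate cultures, and the p-values below measure the spread between pools only, which may be technical.

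Olaparib inhibits PARP1 and PARP2, enzymes that bind DNA breaks and mark nearby proteins with ADP-ribose, and traps them on DNA. Cells that lack homologous recombination, the repair pathway in which BRCA2 acts at breaks, are sensitive to it because lesions met by a replication fork are repaired poorly. A cell passes from G1 into S phase when cyclin D and cyclin E kinases release E2F factors from the RB family. The genes of mitosis come on later, through the MuvB complex with MYBL2 and FOXM1. Quiescent cells keep both programmes off through the related DREAM repressor complex, and the kinase inhibitor CDKN1A is a classical brake on the first step.

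The classes were checked on proliferation markers first. Expression of MKI67, an antigen of proliferating nuclei, averaged 2.53 and 2.58 UMIs per cycling cell in the pools (a UMI, or unique molecular identifier, stands for 1 transcript molecule), against 0.0240 and 0.0396 per G1 cell. At least 1 MKI67 UMI was found in 82.3% and 72.4% of cycling cells (exact 95% intervals 75.4% to 87.9% and 64.5% to 79.3%), against 2.40% and 3.52% of G1 cells. TOP2A, a topoisomerase of S phase and mitosis, was seen in 89.2% and 80.9% of cycling cells and in 8.22% and 11.01% of G1 cells. When each cell was scored with standard S phase and G2/M gene lists, 302 of the 310 cycling cells were called S or G2/M and 1032 of the 1038 G1 cells were called G1. The table thus follows the genes of those scores closely, so the score genes, MKI67 and TOP2A among them, describe the classes and are not results. Some epithelial and serous lineage markers were present in both classes, and others were not seen. PAX8, a transcription factor of the Müllerian lineage, was at 117 and 97.6 CPM (UMI counts scaled to library size) in cycling and 191 and 192 CPM in G1 cells. KRT8, a keratin, was at 563 and 506 CPM in cycling and 993 and 991 CPM in G1 cells. Of 26 epithelial and junction genes 7 and 7 were at 0 UMIs in cycling and 2 and 4 in G1 cells. Of 15 serous lineage genes 2 and 3 were at 0 in cycling and 2 and 2 in G1 cells. EPCAM, an epithelial adhesion molecule, was low in both classes, at 3.59 and 0.765 CPM in cycling and 2.29 and 1.71 CPM in G1 cells. The 19 leukocyte and stromal markers held 38 and 21 UMIs in all in cycling cells and 116 and 110 in G1 cells, or 0.00175% and 0.000941% of UMIs, against 0.00189% and 0.00188%, with 13 and 13 of them at 0 in cycling cells and 12 and 9 in G1 cells.

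Cycling cells held more UMIs. Their median was 14377 and 16171 UMIs per cell, against 9904 and 12169.5 in G1 cells, and at an equal 3000 UMIs they still showed more genes (median 1484 and 1479.5, against 1291 and 1292.5). Mitochondrial transcripts took a median of 7.95% and 8.15% of UMIs in cycling cells, against 9.70% and 9.86% in G1 cells, and ribosomal protein transcripts 22.6% and 22.4%, against 26.7% and 26.8%. The sums over cells held 2173494 and 2232492 UMIs for cycling cells and 6129316 and 5850367 for G1 cells, so that 3 UMIs, the floor used here, correspond to 1.38 and 1.34 CPM in cycling sums and to 0.489 and 0.513 CPM in G1 sums. Intervals and floors cover counting error only. No cell barcode of the 320 µM persister condition was shared by the pools. Doublets were not called here, and the part of doublets in the higher UMI counts was not tested. Without the 10% of cells richest in UMIs in each class and pool, 4175 genes were called between the classes, of which 3979 were among the 4512 called with all cells.

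A smaller share of cells was cycling among 320 µM persister cells than among adapted or control cells. It was 21.3% and 25.1% in the pools of 320 µM persister cells, 46.1% and 44.9% in adapted cells and 57.7% and 56.5% in control cells. The 10 µM persister cells had a similar share, 24.7% and 24.0%, so the low share was not particular to the 320 µM dose. The means were 23.2 ± 2.68% in persister cells, 45.5 ± 0.860% in adapted cells and 57.1 ± 0.839% in control cells (SD, n = 2 pools each). The persister share was 33.9 percentage points below control, and the pools did not overlap, though an exact two-sided permutation test of 2 pools against 2 gives p = 0.33, the smallest it can give. At 3000 UMIs per cell, S phase calls made up 42.5 ± 1.24% of cycling persister cells, 24.8 ± 0.834% of cycling adapted cells and 39.0 ± 1.00% of cycling control cells (exact permutation p = 0.33 for persister against control, n = 2 pools each). The S phase share was higher in both persister pools, 43.4% and 41.7%, than in both control pools, 39.8% and 38.3%, a gap of 3.50 points that was 1.64 points when cells called G1 were left out of the denominator. The persister shares rest on only 66 and 60 S-called cells. Their counting error was not computed, and the SD between pools does not measure it. Without thinning the S phase share was 47.7 ± 0.395% in persister, 29.9 ± 0.818% in adapted and 44.99 ± 1.34% in control cells.

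**Figure D1:**
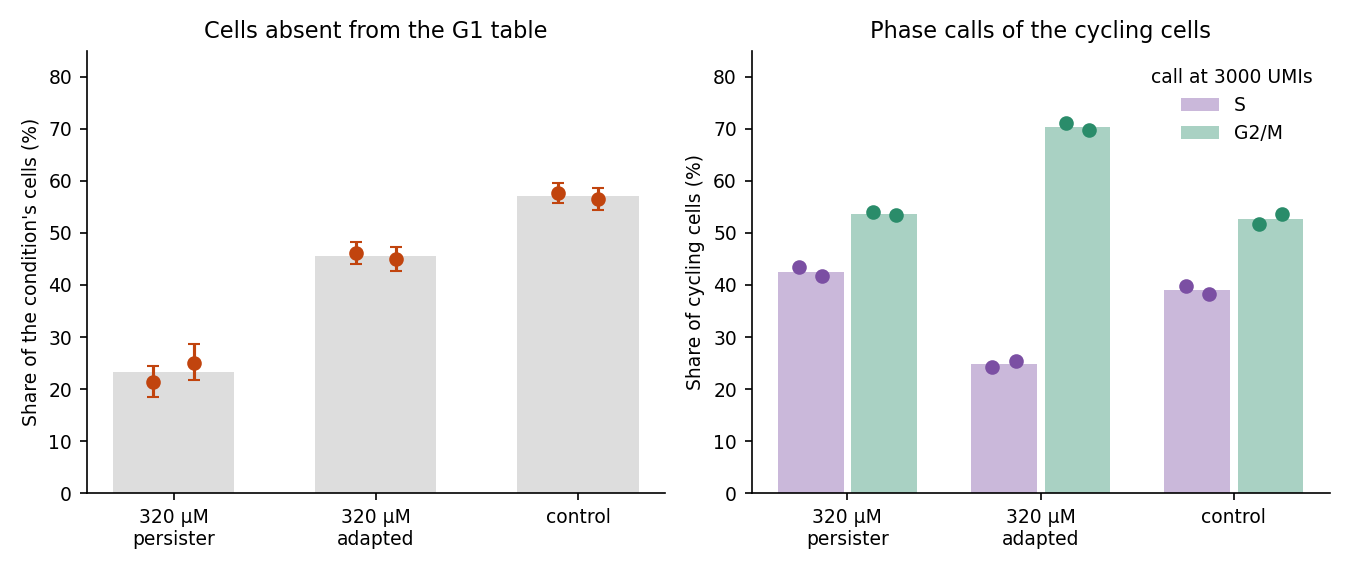
Left, share of each condition's cells absent from the G1 table (percent, bars are means of 2 pools, points are pools with exact 95% binomial intervals); right, shares of the cycling cells called S or G2/M after thinning to 3000 UMIs. The persister share of 23.2% lies below 45.5% in adapted and 57.1% in control cells, while the S phase share of cycling cells is 42.5% in persister, 24.8% in adapted and 39.0% in control cells.

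Across 12892 genes, 2344 were higher in cycling than in G1 persister cells (18.2% of those tested) and 2168 were lower (16.8%; edgeR quasi-likelihood test on UMI sums per class and pool, Benjamini-Hochberg adjusted p under 0.05). These shares of all genes are the background for the counts of list members below. The balance of higher and lower rests on the scaling. With the trimmed mean of M-values (TMM) used here the median change of all genes was -0.00078 on the log2 scale, and 52.0% of called genes were higher. With library totals alone the median moved to 0.21, with 3706 genes higher and 1098 lower, or 77.1% higher. All changes below are relative to the TMM scale, and a fall smaller than 0.21 would turn into a rise on the other. CPM values are on the TMM scale, given for pool 1 and pool 2, and a log2 change is cycling minus G1. The standard error (SE) given with it is approximate, the size of the change divided by the square root of the test's F statistic. For genes with few UMIs in a class, such as MCM10 in G1 cells, it can be smaller than the counting error.

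The replication and mitosis genes that the phase scores do not use were far higher in cycling persister cells, many from a G1 level near zero. Of 34 replication genes outside the scores 33 rose and 0 fell (median log2 change 2.63), and of 45 mitosis genes 45 rose (median 3.32), under both scalings. In control cells 32 of the 34 and all 45 also rose, and in adapted cells 34 and 45. The classes follow cell cycle genes closely, so the rise of these genes also describes the classes. It is not independent support for them. MCM10, which loads polymerase alpha at replication origins (GRCh38 chromosome 10, 13161554 to 13211104), stood at 49.5 and 52.4 CPM in cycling and 0.655 and 0.514 CPM in G1 cells, where 4 and 3 UMIs were all that was seen. Its log2 change was 6.40 (SE 0.28, edgeR, Benjamini-Hochberg adjusted p = 6.42e-28). CCNA2, the cyclin of S phase and mitotic entry, had 72.6 and 63.5 CPM in cycling and 1.15 and 1.37 CPM in G1 cells (log2 change 5.74), and SPC25, a kinetochore subunit of the NDC80 complex, 58.3 and 64.7 CPM in cycling and 1.8 and 1.2 CPM in G1 cells (5.33). These 3 genes were near the floor in G1 persister cells, and the pools of the classes were far apart.

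Further down the order came regulators and enzymes of the same phases. MYBL2, the MuvB partner that turns on mitotic genes, was at 144 and 142 CPM in cycling and 4.09 and 3.43 CPM in G1 cells (log2 change 5.24, SE 0.14). PCLAF, a PCNA partner, was at 196 and 189 CPM in cycling and 4.91 and 7.88 CPM in G1 cells (4.91), and TK1, the thymidine kinase of S phase, at 143 and 145 CPM in cycling and 10.1 and 6.68 CPM in G1 cells (4.09). Others among the 15 largest rises with at least 50 CPM were the cohesin acetyltransferase ESCO2 (4.35), the condensin subunits NCAPG (4.28) and NCAPH (3.83), the formin DIAPH3 (4.14), the polycomb-associated PHF19 (4.003), the kinetochore protein SKA3 (3.94), the checkpoint kinase CHEK1 (3.83) and the cohesin protector CDCA5 (3.81). EMP2, a tetraspan membrane protein, was also among them, at 53.9 and 47.1 CPM in cycling and 3.44 and 3.08 CPM in G1 cells (3.94). Of 19 cell cycle transcription factors and RB family members 13 rose and 2 fell, with FOXM1 at 38.3 and 36.0 CPM in cycling and 2.29 and 2.57 CPM in G1 cells and E2F1 at 22.7 and 37.9 CPM in cycling and 2.29 and 1.54 CPM in G1 cells.

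The promoters of 3 genes of the mitosis list and 3 of the replication list, the largest rises among members with at least 50 CPM in cycling cells, are printed because known cell cycle elements lie in such regions. Each line gives the 250 bases before the RefSeq gene start (GRCh38.p14, read on the gene's own strand, 5′ to 3′). Capitals mark exact matches on either strand to the CCAAT box (CCAAT), to the cell cycle homology region bound by MuvB (CHR, TTTGAA or TTCGAA) and to an E2F core (TTCCCGC or its forms TTCGCGC, then TTGCCGC, and also TTGGCGC).
CCNA2 (chr4:121823884-121824133, minus strand): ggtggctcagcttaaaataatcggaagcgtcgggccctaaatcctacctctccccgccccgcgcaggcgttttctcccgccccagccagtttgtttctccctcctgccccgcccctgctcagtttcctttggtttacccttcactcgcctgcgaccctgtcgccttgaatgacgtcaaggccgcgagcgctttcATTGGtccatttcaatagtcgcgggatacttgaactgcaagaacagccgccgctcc
SPC25 (chr2:168890431-168890680, minus strand): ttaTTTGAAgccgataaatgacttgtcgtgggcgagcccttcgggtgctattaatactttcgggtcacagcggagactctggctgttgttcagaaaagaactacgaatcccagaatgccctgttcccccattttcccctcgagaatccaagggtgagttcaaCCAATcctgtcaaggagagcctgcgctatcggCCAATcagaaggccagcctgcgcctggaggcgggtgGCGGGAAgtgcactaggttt
NCAPG (chr4:17810729-17810978, plus strand): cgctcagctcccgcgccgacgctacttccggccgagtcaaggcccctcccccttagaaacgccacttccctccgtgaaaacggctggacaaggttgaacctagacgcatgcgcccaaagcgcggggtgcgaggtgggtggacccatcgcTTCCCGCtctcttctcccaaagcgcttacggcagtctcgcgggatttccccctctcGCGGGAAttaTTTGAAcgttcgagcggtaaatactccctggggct
MCM10 (chr10:13161308-13161557, plus strand): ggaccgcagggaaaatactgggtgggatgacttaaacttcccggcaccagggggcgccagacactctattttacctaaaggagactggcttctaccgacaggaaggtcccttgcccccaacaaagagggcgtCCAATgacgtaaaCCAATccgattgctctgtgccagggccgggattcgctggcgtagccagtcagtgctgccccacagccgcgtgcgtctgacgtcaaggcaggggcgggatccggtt
TK1 (chr17:78187205-78187454, minus strand): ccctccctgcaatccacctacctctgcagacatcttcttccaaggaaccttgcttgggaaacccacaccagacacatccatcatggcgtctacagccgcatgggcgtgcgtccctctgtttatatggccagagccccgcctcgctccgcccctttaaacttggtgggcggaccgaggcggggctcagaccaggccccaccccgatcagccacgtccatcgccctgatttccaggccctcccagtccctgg
MCM3 (chr6:52284743-52284992, minus strand): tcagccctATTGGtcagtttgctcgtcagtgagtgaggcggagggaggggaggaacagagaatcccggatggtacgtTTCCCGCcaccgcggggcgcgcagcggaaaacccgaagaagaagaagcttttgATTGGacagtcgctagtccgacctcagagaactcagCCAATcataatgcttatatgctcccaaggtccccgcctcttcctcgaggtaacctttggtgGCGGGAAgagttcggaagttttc
All 3 mitosis promoters and MCM10 and MCM3 hold at least 1 match, and TK1 holds none in this window. Over the mitosis list 38 members had a promoter in the table, and 71.1% of these held a CCAAT box, 39.5% a CHR and 28.9% an E2F core. For the 30 replication members with a promoter 15 held a CCAAT box, 1 a CHR and 12 an E2F core. Among all 35116 promoters 32.0% held a CCAAT box, 14.3% a CHR and 10.9% an E2F core. A match is a run of letters and does not show binding. Other forms of these elements were not searched, so a promoter without a mark, CCNA2 for the CHR among them, may still hold one.

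Set against control cells, the step between G1 and cycling was steeper in persister cells, and these genes stood lower in G1 persister cells than in G1 control cells. The change between classes differed from that in control for 1035 genes in the positive direction (8.03% of 12892) and 1162 in the negative (9.01%). Among the replication genes 24 of 34 differed positively and 1 negatively, and among the mitosis genes 29 of 45 positively and 1 negatively. MCM10 was at 51.0 ± 2.09 CPM in cycling persister and 42.1 ± 5.89 CPM in cycling control cells (SD, n = 2 pools each), but at 0.584 ± 0.0995 CPM in G1 persister and 4.92 ± 1.14 CPM in G1 control cells, a difference in change of 3.31 (SE 0.44, edgeR, Benjamini-Hochberg adjusted p = 4.12e-08). That call was lost after thinning all cells to 3000 UMIs (difference 1.86, edgeR, Benjamini-Hochberg adjusted p = 0.158). MYBL2 had 144 and 142 CPM in cycling persister and 96.9 and 105 CPM in cycling control cells, with 4.09 and 3.43 CPM in G1 persister and 21.0 and 22.3 CPM in G1 control cells (difference 3.01, edgeR, Benjamini-Hochberg adjusted p = 1.64e-18).

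Counted over the lists, both G1 persister pools lay below both G1 control pools for 32 of 34 replication genes and 42 of 45 mitosis genes, where 36.6% of all genes did and 35.4% lay above. In cycling cells the picture was mixed: persister pools lay above control pools for 19 replication and 9 mitosis genes and below for 8 and 28, where 35.1% of all genes lay above and 36.4% below. At 3000 UMIs, 96.5% and 98.2% of G1 persister cells were called G1 by phase, against 87.2% and 88.1% of G1 control cells. At full depth these calls took in 99.3% and 99.6% of the persister and 98.5% and 98.5% of the control cells. The part of this in the differences was not tested. MKI67 itself was at 2.29 and 3.08 CPM in G1 persister and 10.8 and 9.54 CPM in G1 control cells.

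**Figure D2:**
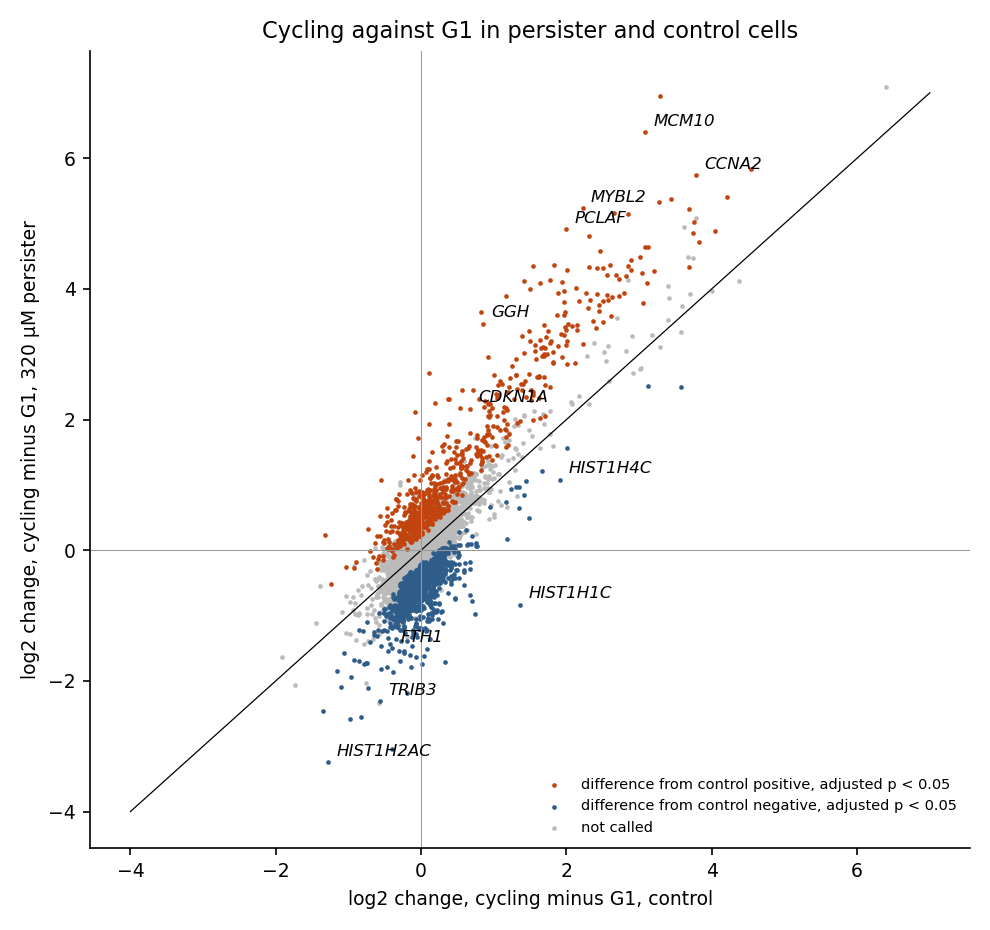
Log2 change between cycling and G1 cells in control (x axis) and in 320 µM persister cells (y axis), 1 point per gene with at least 20 CPM in either persister class; the line marks equal change. MCM10 (6.40 in persister cells) and MYBL2 (5.24) lie well above the line, while HIST1H2AC (-3.24) and TRIB3 (-2.31) lie below it.

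Genes of homologous recombination, the repair pathway that BRCA2 serves, were higher in cycling persister cells. Of 31 genes of recombination and the Fanconi anemia pathway 23 rose and 2 fell (median log2 change 1.72), 25 and 0 with library totals. In control cells 23 of the 31 rose and 0 fell, and in adapted cells 22 rose and 1 fell. BRCA2 (chromosome 13, 32315474 to 32400266) was at 28.3 and 27.9 CPM in cycling and 2.46 and 3.6 CPM in G1 cells, a log2 change of 3.21 (SE 0.23, edgeR, Benjamini-Hochberg adjusted p = 2.9e-18). BRCA1, its partner at breaks, was at 82.2 and 74.2 CPM in cycling and 9.49 and 8.23 CPM in G1 cells (3.14), and BARD1, which forms a ubiquitin ligase with BRCA1, at 112 and 104 CPM in cycling and 12.8 and 14.1 CPM in G1 cells (3.005). FANCI, which with FANCD2 forms the clamp that Fanconi signalling monoubiquitinates, changed by 3.6 and UBE2T, the ubiquitin-conjugating enzyme for it, by 2.49. The BRCA2 change was 1.57 larger than in control (edgeR, Benjamini-Hochberg adjusted p = 3.75e-05), from 24.9 and 22.7 CPM in cycling and 6.69 and 8.47 CPM in G1 control cells, and that of BRCA1 was 1.15 larger (adjusted p = 1.83e-06). After thinning to 3000 UMIs neither difference was called (BRCA2 1.11, edgeR, Benjamini-Hochberg adjusted p = 0.282, and BRCA1 0.75, adjusted p = 0.229).

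The drug's own targets moved less. PARP1 (chromosome 1, 226360691 to 226408079) had 307 and 291 CPM in cycling and 185 and 187 CPM in G1 persister cells, a log2 change of 0.68 (SE 0.06, edgeR, Benjamini-Hochberg adjusted p = 3.73e-14). Control cells had 354 and 345 CPM in cycling and 275 and 264 CPM in G1 cells, so cycling persister cells lay below cycling control cells but above both G1 classes. PARP1 was picked from earlier results on these samples, so its level against control is not a result here. PARP2 was at 41.5 and 33.3 CPM in cycling and 13.6 and 16.8 CPM in G1 persister cells (1.3), a change that was not called different from control (0.37, edgeR, Benjamini-Hochberg adjusted p = 0.173) but was with library totals (0.58, adjusted p = 0.0180). HPF1, the cofactor that directs both enzymes to serine, changed by 0.63, and the glycohydrolase PARG, which removes the chains, stood at 12.4 and 13.8 CPM in cycling and 13.7 and 11.1 CPM in G1 cells (not called, adjusted p = 0.843). Of 19 genes of PARP and single-strand break repair 9 rose and 4 fell (median 0.38), the 4 falls becoming 1 with library totals. No UMI of ABCB1, a multidrug transporter known to carry olaparib out of cells, was found, with 0 in all 4 persister sums.

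End joining and checkpoint genes were mixed. Among 14 end joining genes 6 rose and 2 fell (median 0.28), with PRKDC, the catalytic subunit of DNA-PK, at 669 and 587 CPM in cycling and 343 and 309.8 CPM in G1 cells (0.94) and RIF1, a brake on resection, changed by 1.10. TP53BP1, which recruits RIF1, was at 47.9 and 35.6 CPM in cycling and 38.5 and 45.2 CPM in G1 cells and was not called (edgeR, Benjamini-Hochberg adjusted p = 0.981). Of 18 replication stress checkpoint genes 10 rose and 1 fell (median 0.70), and the counts were also 10 and 1 in control and in adapted cells. CHEK1 had 79.4 and 71.6 CPM in cycling and 4.91 and 5.66 CPM in G1 cells, and TOPBP1, the activator of ATR, 82.2 and 88.8 CPM in cycling and 27.7 and 25.4 CPM in G1 cells (1.69). The kinase ATR itself stood at 13.6 and 17.2 CPM in cycling and 17.0 and 16.3 CPM in G1 cells and was not called (adjusted p = 0.736).

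CDKN1A, the p21 inhibitor of cyclin-dependent kinases (chromosome 6, 36676460 to 36687339), was higher in the cycling cells. It had 105 and 123 CPM in cycling and 22.6 and 28.4 CPM in G1 persister cells, against 16.1 and 18.3 CPM in cycling and 10.4 and 11.2 CPM in G1 control cells. Cycling persister cells thus held the most CDKN1A of the 4 classes, and each pool lay apart from the other classes. CDKN1A was picked from earlier results on these samples, so its level against control is not a result here. The log2 change was 2.17 (SE 0.11, edgeR, Benjamini-Hochberg adjusted p = 3.7e-25), 1.5 above that in control (SE 0.18, adjusted p = 1.14e-09) and 0.96 above that in adapted cells (adjusted p = 1.13e-06). Split by phase call, CDKN1A was at 122 and 129 CPM in S-called and 88.3 and 123 CPM in G2/M-called cycling cells and 22.6 and 28.4 CPM in G1 cells. The cyclin partner of G1, CCND1 (chromosome 11, 69641087 to 69654474), went the other way, with 105 and 108 CPM in cycling and 264 and 253 CPM in G1 persister cells (-1.28, SE 0.09, edgeR, Benjamini-Hochberg adjusted p = 4.81e-15). Control cells differed little between the classes, at 221 and 221 CPM in cycling and 237 and 229 CPM in G1 cells, and the difference in change was -1.21 (adjusted p = 1.69e-10).

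Other kinase regulators gave smaller shifts. CDKN1B, the p27 inhibitor, stood at 31.5 and 21.4 CPM in cycling and 29.1 and 29.8 CPM in G1 cells and was not called (edgeR, Benjamini-Hochberg adjusted p = 0.474). CDKN2B, the p15 inhibitor of CDK4 and CDK6, fell (-0.81), and so did CDK6 (-0.57), while CCND3 rose (0.76). In all, 6 of 14 genes of this list rose and 3 fell (median 0.19). Of 23 p53 targets 8 rose and 2 fell (median 0.17), beside 18.2% and 16.8% of all genes. Among them PMAIP1, the BH3-only protein NOXA, was at 87.0 and 71.2 CPM in cycling and 37.6 and 32.6 CPM in G1 cells, and POLH, the translesion polymerase, at 23.5 and 20.7 CPM in cycling and 8.51 and 6.51 CPM in G1 cells, whereas GDF15 fell as described below. MDM2, the p53 ubiquitin ligase, was at 37.5 and 37.1 CPM in cycling and 23.9 and 32.0 CPM in G1 cells (0.42, adjusted p = 0.0221). The calls of CCND3, PMAIP1 and HPF1 were lost when cells were thinned to 3000 UMIs (edgeR, Benjamini-Hochberg adjusted p = 0.376, 0.0642 and 0.111). SAMHD1, a dNTP hydrolase that also acts at stalled forks, had 77.8 and 78.1 CPM in cycling and 34.9 and 32.7 CPM in G1 persister cells (1.20), against 14.8 and 15.5 CPM in cycling and 14.8 and 14.3 CPM in G1 control cells.

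Histone genes led the falls in cycling persister cells, while others of the family rose. HIST1H2AC, which encodes an H2A protein, had 24.7 and 28.7 CPM in cycling and 261 and 247 CPM in G1 persister cells, a log2 change of -3.24 (SE 0.13, edgeR, Benjamini-Hochberg adjusted p = 1.19e-18). HIST1H2BD, an H2B gene, had 12.4 and 13.8 CPM in cycling and 73.7 and 70.8 CPM in G1 cells (-2.46), and HIST1H4H, an H4 gene, 3.99 and 6.12 CPM in cycling and 42.2 and 41.3 CPM in G1 cells (-3.04). Other members of the family rose, such as HIST1H4C with 366 and 389 CPM in cycling and 172 and 185 CPM in G1 cells (1.08) and the linker histone HIST1H1A with 16.8 and 19.5 CPM in cycling and 2.29 and 1.54 CPM in G1 cells (3.23). Of 24 histone genes tested 5 rose and 8 fell, beside 18.2% and 16.8% of all genes. With library totals 7 rose and 7 fell. The median was -0.096, or 0.052 with library totals. In control cells 15 of the 24 rose and 3 fell (median 1.08), and in adapted cells 9 rose and 3 fell (median 0.63). Canonical histone mRNAs end in a stem-loop and mostly lack the poly(A) tail that this 3′ chemistry captures, and some genes of the family also make a polyadenylated form outside S phase, so these values count the polyadenylated part. Members of the family are near-identical in sequence, and reads shared between copies make single-gene values uncertain.

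The histone genes that differed from control all differed negatively. Of the 24 genes 11 differed negatively and 0 positively, with a median of -1.05, against 9.01% of all genes negative and 8.03% positive. In cycling cells 21 of the 24 lay lower in both persister pools than in both control pools, where 36.4% of all genes did. HIST1H1C, a linker histone, was at 36.3 and 26.8 CPM in cycling and 58.9 and 53.1 CPM in G1 persister cells, against 196 and 195 CPM in cycling and 75.5 and 76.8 CPM in G1 control cells, so the direction between classes was opposite in the conditions (difference -2.19, edgeR, Benjamini-Hochberg adjusted p = 1.33e-08). HIST2H2AC was at 11.97 and 7.27 CPM in cycling and 12.8 and 7.88 CPM in G1 persister cells, against 75.5 and 74.9 CPM in cycling and 23.5 and 26.1 CPM in G1 control cells (-1.71).

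Stress-response genes were lower in cycling than in G1 persister cells. Of 32 genes of the integrated stress and unfolded protein response, which slows translation and raises amino acid supply through ATF4, 20 fell and 4 rose (median log2 change -0.66), and with library totals 20 fell and 7 rose. TRIB3, a pseudokinase target of ATF4 (chromosome 20, 362835 to 397559), had 14.0 and 13.0 CPM in cycling and 66.5 and 67.0 CPM in G1 persister cells (-2.31, SE 0.16, edgeR, Benjamini-Hochberg adjusted p = 8e-19). GDF15, a secreted stress cytokine, had 23.9 and 33.7 CPM in cycling and 126 and 111 CPM in G1 cells (-2.04), and NUPR1, a stress-induced chromatin protein, 27.5 and 28.3 CPM in cycling and 109.5 and 104 CPM in G1 cells (-1.93). The amino acid enzyme ASNS, which makes asparagine, changed by -1.11, CHAC1, which degrades glutathione, by -1.55, and DDIT3, the CHOP factor, by -1.17. Not all arms fell: PDIA4, a disulfide isomerase of the endoplasmic reticulum, rose, with 105 and 93.8 CPM in cycling and 59.1 and 50.6 CPM in G1 cells, as did the chaperone HSP90B1 (0.32), and ATF3 stood at 165 and 145 CPM in cycling and 156 and 142 CPM in G1 cells without a call (adjusted p = 0.688).

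Most stress genes nonetheless stood above control in cycling cells. Both cycling persister pools lay above both cycling control pools for 25 of the 32 genes, where 35.1% of all genes did, and both G1 pools did so for 26, where 35.4% did. TRIB3, ASNS, NUPR1, CHAC1, DDIT4 and GDF15 were picked from earlier results on these same samples. Their level against control is therefore not a result here. The counts above include such genes, and the list was chosen with earlier results known. Those counts therefore describe the list and are not independent support for a rise against control. TRIB3 in cycling persister cells was 13.5 ± 0.674 CPM, against 4.47 ± 0.524 CPM in cycling control cells (SD, n = 2 pools each), and GDF15 was 28.8 ± 6.88 CPM in cycling persister and 3.59 ± 0.733 CPM in cycling control cells. The change between the classes differed from control negatively in 21 of the 32 genes and positively in 2. For TRIB3 the difference was -1.74 (SE 0.26, edgeR, Benjamini-Hochberg adjusted p = 6.85e-07), for ASNS -1.41 (adjusted p = 0.00702), and for GDF15 -1.27, which was not called (adjusted p = 0.0576). With the classes of a pool paired as a block, the GDF15 difference was called (-1.27, edgeR, Benjamini-Hochberg adjusted p = 0.000112). It was also called with DESeq2 (adjusted p = 0.00248), without the low-count filter (edgeR, adjusted p = 3.69e-06) and with the compared conditions alone (edgeR, adjusted p = 0.000314).

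Most genes of ferritin and of the antioxidant targets of NRF2 were lower in cycling cells. Of 21 tested genes 15 fell, 0 rose and 6 were not called (median -0.85), and with library totals 13 fell and 0 rose. FTH1, the ferritin heavy chain that stores iron (chromosome 11, 61959718 to 61967660), had 8704 and 8385 CPM in cycling and 24540.2 and 23692 CPM in G1 persister cells, a log2 change of -1.5 (SE 0.04, edgeR, Benjamini-Hochberg adjusted p = 1.99e-39). FTL, the light chain, had 4322 and 4114 CPM in cycling and 9361 and 9017 CPM in G1 cells (-1.12). Cycling persister cells stayed above control for FTH1, which was at 4609.7 and 4579 CPM in cycling and 6121 and 5948 CPM in G1 control cells, and the change differed from control by -1.10 (adjusted p = 8.2e-24). FTH1 was also picked from earlier results on these samples, so its level against control is not a result here. SQSTM1, the p62 adaptor of selective autophagy, changed by -0.92, and TXNRD1, a thioredoxin reductase, had 282 and 245 CPM in cycling and 461 and 454 CPM in G1 cells (-0.80). AKR1C3, an aldo-keto reductase whose close relatives share sequence with it, had 22.7 and 20.7 CPM in cycling and 71.4 and 67.3 CPM in G1 cells (-1.68).

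**Figure D3:**
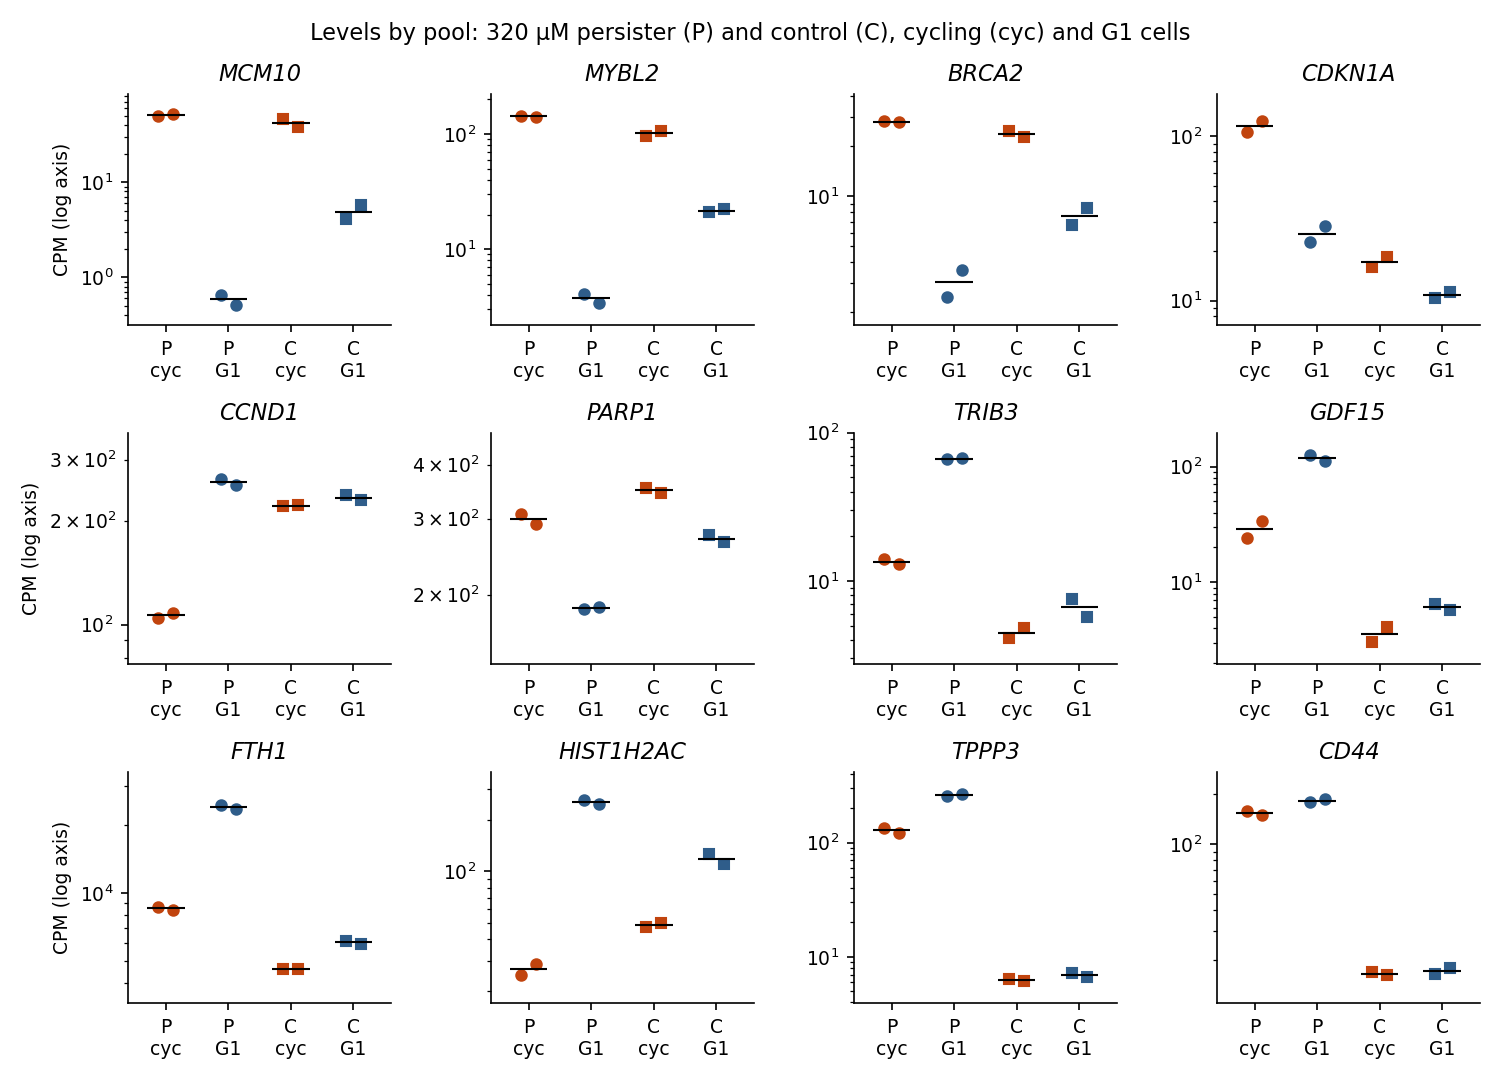
CPM of 12 genes (log axis) in cycling and G1 cells of 320 µM persister (P, circles) and control (C, squares) samples; each point is a pool and bars are means of 2 pools. CDKN1A is highest in cycling persister cells (105 and 123 CPM), FTH1 and TRIB3 are highest in G1 persister cells, and CD44 and TPPP3 are far above control in both persister classes. These genes were picked from earlier results on these samples, so their levels against control are not results here.

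Genes that mark 320 µM persister cells against control were also examined by class. These 20 genes were picked from earlier results on these same samples, so their difference from control is not a result here. The classes were not used in the choice, but the split by class is not independent of it. Cycling cells made up 23.2% of persister and 57.1% of control cells. A choice of genes raised in persister cells can therefore favour genes that are higher in G1 cells. CD44, a hyaluronan receptor (chromosome 11, 35138870 to 35232402), had 158 and 150.01 CPM in cycling and 179 and 186 CPM in G1 persister cells, against 17.0 and 16.1 CPM in cycling and 16.5 and 17.8 CPM in G1 control cells. Its change between classes was -0.25 (SE 0.07, edgeR, Benjamini-Hochberg adjusted p = 0.00557) and was lost with library totals (-0.028, edgeR, Benjamini-Hochberg adjusted p = 0.804). The CD44 call was also lost without the cells richest in UMIs (-0.17, edgeR, Benjamini-Hochberg adjusted p = 0.0693) and without the cycling sum of pool 2 (-0.22). TPPP3, a tubulin polymerization factor (chromosome 16, 67389809 to 67393535), had 134 and 122 CPM in cycling and 254 and 267 CPM in G1 persister cells (-1.03, adjusted p = 1.47e-16), and 6.36 and 6.17 CPM in cycling and 7.2 and 6.68 CPM in G1 control cells. Free RNA can reach cells of every condition in a pool. It was not measured here, and its part in these values was not tested.

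Genes that are low in persister cells were low in both classes too. APOA1, an apolipoprotein, had 3.19 and 10.3 CPM in cycling and 6.06 and 13.0 CPM in G1 persister cells, against 102 and 111 CPM in cycling and 104 and 128 CPM in G1 control cells. SPON1, a matrix protein, had 13.6 and 13.4 CPM in cycling and 16.4 and 15.1 CPM in G1 cells, against 119 and 115 CPM in cycling and 112 and 108 CPM in G1 control cells, and GSTM4, a glutathione transferase of a family of near copies, 7.18 and 8.04 CPM in cycling and 8.51 and 10.3 CPM in G1 cells, against 72.5 and 73.0 CPM in cycling and 53.3 and 55.0 CPM in G1 control cells. None of these 3 was called between the persister classes (edgeR, Benjamini-Hochberg adjusted p = 0.522, 0.418 and 0.427). NEU1, a lysosomal sialidase raised in persister cells, was likewise at 157 and 153 CPM in cycling and 172 and 168 CPM in G1 cells (adjusted p = 0.173). Of the 20 genes 12 fell and 4 rose in cycling cells, the falls being TPPP3, CD44, CLDN4, LEMD1, DDIT4 and the 7 stress, ferritin and thioredoxin genes GDF15, NUPR1, TRIB3, ASNS, CHAC1, FTH1 and TXNRD1, and the rises CDKN1A, PARP1, LYPD1 and the metallothionein MT2A.

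The other named falls were of varied function. SPP1, the secreted phosphoprotein osteopontin, had 66.2 and 69.3 CPM in cycling and 335 and 282 CPM in G1 persister cells (-2.19, edgeR, Benjamini-Hochberg adjusted p = 1.01e-05), against 135 and 146 CPM in cycling and 161 and 159.9 CPM in G1 control cells, and the change differed from control by -1.99 (adjusted p = 0.000416). CLDN4, a tight junction claudin, had 37.5 and 53.2 CPM in cycling and 181 and 201 CPM in G1 cells (-2.07), and S100A4, a calcium-binding protein, 427 and 455 CPM in cycling and 1481 and 1442 CPM in G1 cells (-1.73). MAL, a proteolipid of apical membranes, changed by -2.09, BHLHE41, a circadian repressor, by -1.84, TPD52L1 by -1.82, FAM84B by -2.10, SMIM1 by -1.69 and SEC11C, a signal peptidase subunit, by -1.69. Of 22 epithelial and junction genes 11 fell, 0 rose and 11 were not called (median -0.99), the falls including KRT8 (-0.89) and CLDN1 (-1.72).

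Of 27 mesenchymal and matrix genes 7 rose, 3 fell and 17 were not called (median 0.27), beside 18.2% and 16.8% of all genes, and with library totals 9 rose and 2 fell. COL4A2, a basement membrane collagen, had 107 and 101 CPM in cycling and 39.9 and 42.3 CPM in G1 persister cells (1.33, edgeR, Benjamini-Hochberg adjusted p = 7.5e-18), and SPARC, a matrix glycoprotein, 197 and 199 CPM in cycling and 133 and 134 CPM in G1 cells (0.57). VIM, the intermediate filament vimentin, was at 665 and 711 CPM in cycling and 555 and 515 CPM in G1 cells (0.36, adjusted p = 0.00685). Of 13 serous lineage genes 4 fell and 1 rose. PAX8 changed by -0.84, and the riser, MECOM, by 0.47 (adjusted p = 0.00888), a call that was lost without pool 2 of the cycling cells (0.29, edgeR, Benjamini-Hochberg adjusted p = 0.296), without pool 1 of the G1 cells (0.36, adjusted p = 0.107) and after thinning to 3000 UMIs (0.079, adjusted p = 0.906).

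Immediate early genes, which growth signals switch on first, were lower in cycling cells: 13 of 20 fell and 0 rose (median -0.63). In control cells 15 fell and 0 rose, and in adapted cells 16 fell and 1 rose, so the fall was not particular to persister cells. JUNB, an AP-1 subunit, had 92.2 and 89.5 CPM in cycling and 196 and 193 CPM in G1 persister cells (-1.10, edgeR, Benjamini-Hochberg adjusted p = 5.24e-18), and MYC, the growth factor-responsive transcription factor, had 115 and 81.1 CPM in cycling and 216 and 191 CPM in G1 cells (-1.06). Interferon genes gave 7 falls and 3 rises of 40 (median -0.23), beside 16.8% and 18.2% of all genes, or 4 and 7 with library totals. In control cells 18 of the 40 fell and 0 rose, and in adapted cells 15 fell and 1 rose. IFITM3, a membrane restriction factor, was at 37.5 and 42.9 CPM in cycling and 89.9 and 98.7 CPM in G1 cells. IFI6, an interferon-induced mitochondrial protein, was higher in cycling cells, at 173 and 175 CPM in cycling and 111 and 111 CPM in G1 cells. The NF-kB list had 4 falls and 0 rises of 25 (median -0.50), a share of falls near the 16.8% of all genes, the falls being the inhibitor NFKBIA (-0.59), the chemokines CXCL1 (-1.14) and CXCL2 (-1.46) and the cytokine CSF1 (-1.33). For MHC class I presentation 2 rose and 3 fell of 17 (median -0.038, 0.18 with library totals), beside 18.2% and 16.8% of all genes. B2M, the light chain, was higher in cycling cells, at 1679 and 1509.7 CPM in cycling and 1163 and 1175 CPM in G1 cells.

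Ribosomal and mitochondrial transcripts took a smaller part of the RNA of cycling cells. All 41 large ribosomal protein genes fell (median -0.50), 35 with library totals, and all 13 mitochondrially encoded genes fell (median -0.46) under both scalings. In control cells 34 of the 41 and 2 of the 13 fell, and in adapted cells 40 and 13. RPL36 had 1275 and 1331 CPM in cycling and 2429 and 2414 CPM in G1 cells (-0.89). Of 50 nuclear oxidative phosphorylation genes 38 fell and 1 rose (median -0.26), though with library totals 16 fell and 9 rose (median -0.038). UQCRB, a complex III subunit, had 1553 and 1536 CPM in cycling and 2204 and 2215 CPM in G1 cells (-0.52). Of 28 nucleolar genes 10 fell and 3 rose (median -0.29, and 2 and 6 with library totals). Of 25 nucleotide synthesis genes 15 rose and 3 fell (median 0.50), among the rises the thymidylate kinase DTYMK (1.42) and the purine synthesis enzymes PAICS (0.87) and GMPS (0.81). Cholesterol synthesis had 7 rises and 2 falls of 23 (median 0.25), 14 and 1 with library totals. Autophagy and lysosome genes gave 12 falls and 4 rises of 33 (median -0.20, 0.016 with library totals). Hypoxia and glycolysis genes gave 8 falls and 4 rises of 26 (median -0.056, 0.16 with library totals). The BCL2 family gave 5 falls and 3 rises of 20 (median -0.037, 0.18 with library totals). Beside these counts, 16.8% of all genes fell and 18.2% rose. The chromatin and tubulin genes of dividing cells rose in 19 of 20 (median 1.04).

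**Figure D4:**
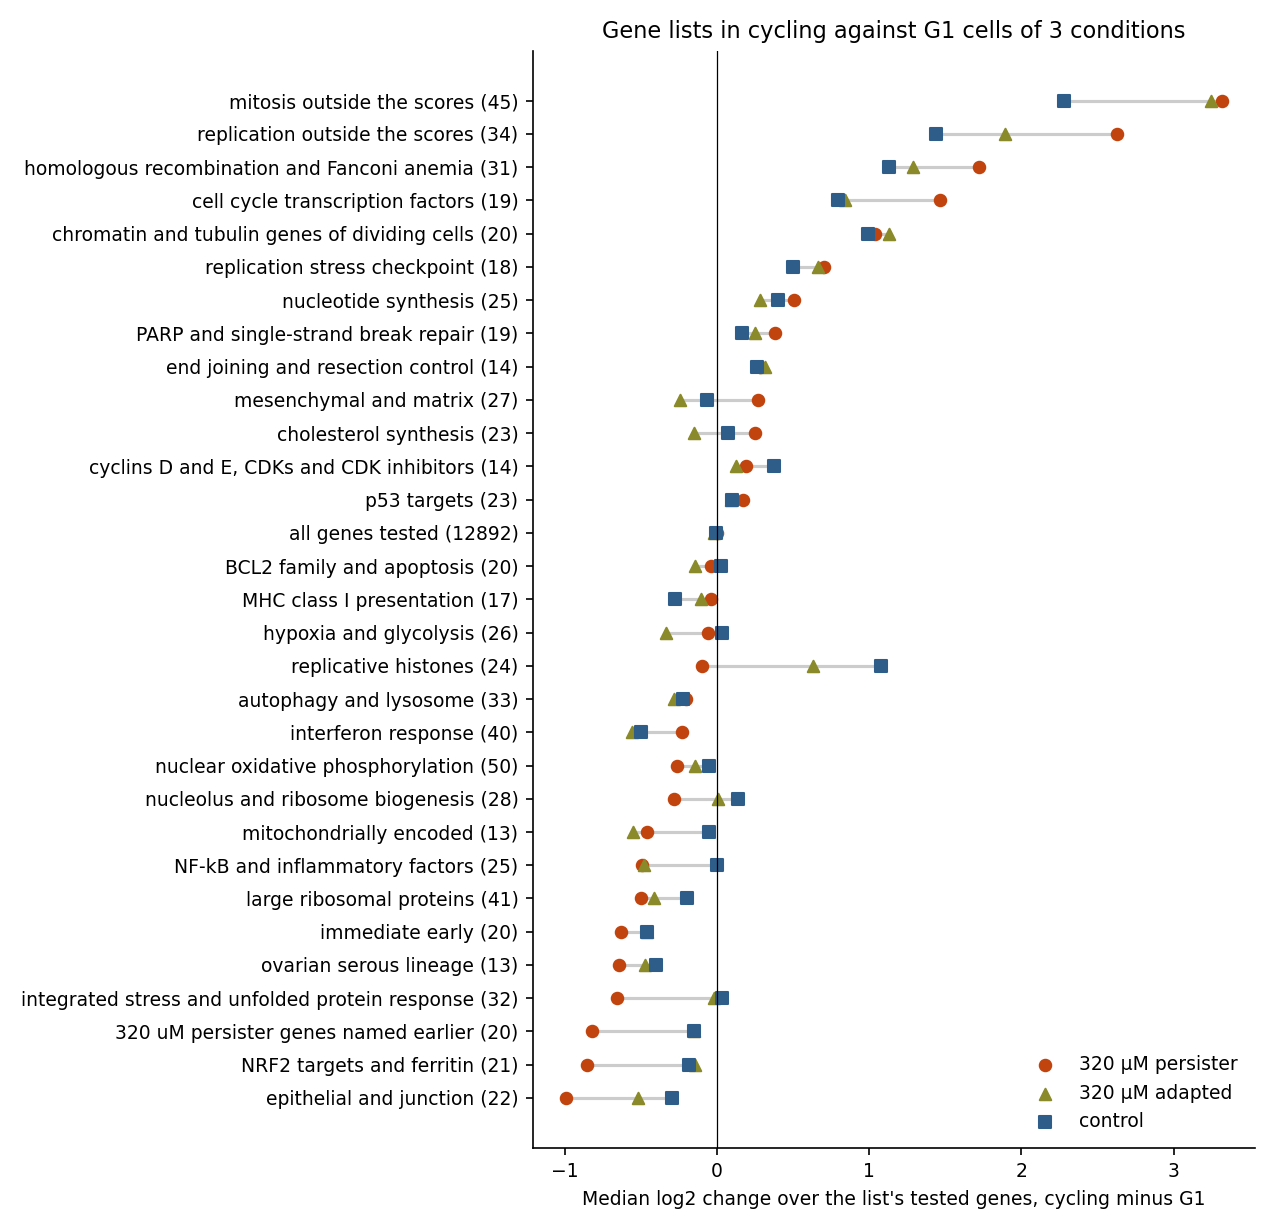
Median log2 change between cycling and G1 cells over the tested genes of each list (number in brackets) in 320 µM persister (circles), 320 µM adapted (triangles) and control cells (squares). The stress response list is at -0.66 in persister cells and near 0 in adapted (-0.020) and control cells (0.031), and the replication list is at 2.63 in persister, 1.89 in adapted and 1.44 in control cells.

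The cycling cells were split once more by their unthinned phase call, as a description with no test, since the calls use the score genes. The S-called cells numbered 75 and 73 in the pools and the G2/M-called cells 80 and 74. TK1, the thymidine kinase, was at 167 and 162 CPM in S-called, 123 and 133 CPM in G2/M-called and 10.1 and 6.68 CPM in G1 cells. CDKN3, a mitotic phosphatase, was at 189 and 184 CPM in S-called, 293 and 263 CPM in G2/M-called and 29.1 and 29.6 CPM in G1 cells. HIST1H2AC was lower in S-called cells, at 15.5 and 12.9 CPM, than in G2/M-called cells, at 32.1 and 38.8 CPM. FTH1 was at 8792 and 8713 CPM in S-called and 8280.1 and 8075 CPM in G2/M-called cells, and TPPP3 at 136 and 125 CPM in S-called and 133 and 123 CPM in G2/M-called cells, all below the G1 level.

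**Figure D5:**
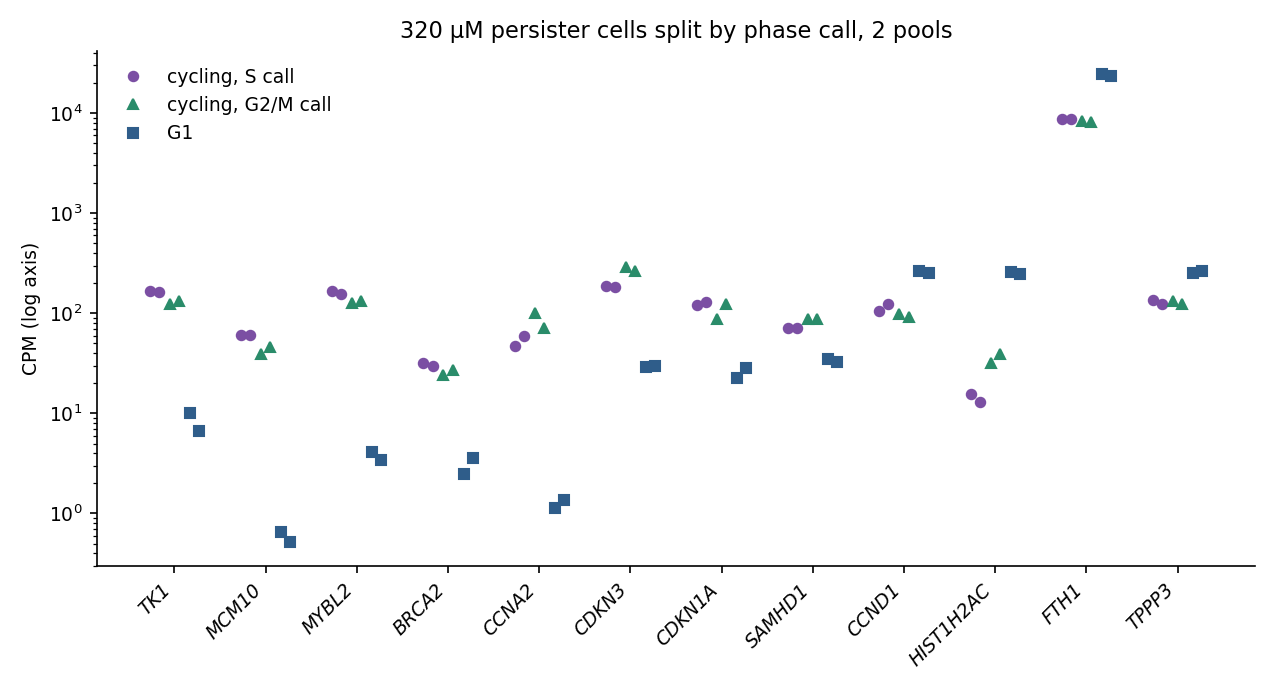
CPM (log axis) of 12 genes in 320 µM persister cells called S (circles) or G2/M (triangles) among cycling cells and in G1 cells (squares), 2 pools each. CCND1, FTH1, HIST1H2AC and TPPP3 are highest in G1 cells, CDKN1A is higher in both cycling classes, and MCM10 is near 0.6 CPM in G1 cells.

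Adapted cells, resistant to the same dose, gave a further comparison of the step between classes. The change differed from that in adapted cells positively for 937 genes (7.27% of 12892) and negatively for 915 (7.1%). It shares the persister sums with the comparison against control. PCLAF had 4.91 and 7.88 CPM in G1 persister and 70.2 and 69.5 CPM in G1 adapted cells, with 196 and 189 CPM in cycling persister and 276 and 285 CPM in cycling adapted cells, a difference in change of 2.91 (SE 0.15, edgeR, Benjamini-Hochberg adjusted p = 8.17e-23). The folate hydrolase GGH (2.28) and MYBL2 (2.09) also differed, and MCM10 differed by 1.89. For MCM10 the call was lost without pool 2 of the G1 adapted cells (1.09, edgeR, Benjamini-Hochberg adjusted p = 0.425) and without either pool of the G1 persister cells. Of the 32 stress genes 19 differed negatively from adapted cells and 4 positively, with TRIB3 at 14.0 and 13.0 CPM in cycling and 66.5 and 67.0 CPM in G1 persister cells, against 33.6 and 29.5 CPM in cycling and 43.7 and 42.5 CPM in G1 adapted cells (-1.86, adjusted p = 2.96e-10). Of the 45 mitosis genes 7 differed from adapted cells positively and 6 negatively, with a median of 0.14. SPP1 differed by -1.49 (adjusted p = 0.0393), but with the classes of a pool paired as a block it was not called (-1.48, edgeR, Benjamini-Hochberg adjusted p = 0.176), and its call was also lost without any 1 of the persister or adapted sums except the G1 persister sum of pool 2. FTH1 was at 18103 and 17782 CPM in cycling and 30097 and 28944 CPM in G1 adapted cells, and its change differed by -0.78 (adjusted p = 3.24e-17).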

How the data were processed

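Per the labels, cells of 5 conditions were hashed with antibody tags, mixed into 2 pools and captured with 10X 3′ chemistry, and the submitters' processing notes name Cell Ranger 3.1, Seurat and GRCh38. The authors deposited raw UMI counts of 19893 genes in 13800 cells and a table of 7762 G1 cells, whose UMI totals equal those of the counts in 37 cells. No source used here gives the making of that table, any doublet removal or the strand of counting. The lowest gene number per cell was 502 and the highest mitochondrial share 15.0%. Condition and pool came from the cell names.

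UMIs were summed per condition, class and pool (20 sums of 812531 to 14850900 UMIs) and fitted together with edgeR 4.0.16 in R 4.3.3: filterByExpr, TMM factors (0.781 to 1.19), robust quasi-likelihood tests on 10 residual degrees of freedom and Benjamini-Hochberg adjustment over 12892 genes at 0.05. Precision is limited by the 2173494 UMIs of the smaller persister cycling sum. The script was tested on simulated data. Phase calls used scanpy 1.11.5 with 43 S phase and 54 G2/M genes, and permutation tests scipy 1.17.1. Cycling and G1 sums of a pool come from the same hashed cells, and their pool differences correlated in each condition (0.191 to 0.505 over 2744 genes), so they are paired, and a fit with that block was an alternative. Others were DESeq2 1.42.0, library totals, no low-count filter, the compared conditions alone, thinning to 3000 UMIs, matching phase calls, removal of cells rich in UMIs, and leaving out each sum.

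Members and gene lists were chosen with earlier results of these data known. Genes named are the 15 largest rises and falls called, at 50 CPM or more and with pools not overlapping, the 10 largest differences of each sign between conditions, up to 4 members of each list with the lowest p at 20 CPM or more, and a fixed set of cycle, repair and persister genes. Some genes that this rule names are not reported here. Other list members named in the text were chosen after their values were seen. Promoter sequences are from RefSeq (GRCh38.p14) and gene positions from GENCODE on GRCh38.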

Additional observations from a re-analysis of the deposited data

Results flagged for a closer look

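The step between cycling and G1 cells differed between conditions by a test of the difference itself (edgeR, Benjamini-Hochberg adjusted) for the named genes below, whose values are differences in log2 change. They were ranked among genes called, outside the phase scores, at 50 CPM or more in at least 1 class mean, with pools not overlapping and without ribosomal protein, mitochondrial, LINC and clone symbols. For 320 µM persister cells minus control the 10 largest positive ones by that rule were MCM10 (3.31), MYBL2 (3.01), PCLAF (2.92), GGH (2.62), PHF19 (2.50), TK1 (2.45), DIAPH3 (2.37), SPC25 (2.06), SKA3 (2.05) and CCNA2 (1.96). The 10 largest negative ones were HIST1H1C (-2.19), SPP1 (-1.99), HIST1H2AC (-1.97), TRIB3 (-1.74), SMCO4 (-1.72), HIST2H2AC (-1.71), RAPGEF3 (-1.46), ASNS (-1.41), SEC11C (-1.40) and FAM84B (-1.37). Of the fixed genes, BRCA2 (1.57), CDKN1A (1.5), BRCA1 (1.15) and PARP1 (0.31) differed positively and CCND1 (-1.21) and TPPP3 (-0.88) negatively.

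For 320 µM persister minus 320 µM adapted cells the 10 largest positive differences were in PCLAF (2.91), GGH (2.28), ABLIM1 (2.11), MYBL2 (2.09), S100A2 (2.08), PRR11 (2.01), EMP2 (1.99), FABP5 (1.93), MCM10 (1.89) and SYNJ2 (1.83). Of the 10 largest negative ones, 9 were in HIST1H2AC (-2.08), FOSL1 (-2.02), MAL (-1.96), CLGN (-1.88), TRIB3 (-1.86), NUPR1 (-1.71), TPPP3 (-1.65), CLDN4 (-1.61) and SPP1 (-1.49). Both comparisons use the same persister sums. The calls of MCM10, FOSL1, MAL and SPP1 against adapted cells, and those of MCM10, BRCA2, BRCA1 and TPPP3 against control, were lost under at least 1 alternative given in the report or among the effects of processing.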

How the results depend on the processing

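Counts of genes called between cycling and G1 persister cells were 2344 higher and 2168 lower. With library totals alone they were 3706 and 1098, and the difference from control had 2118 positive and 508 negative genes. Thinning every cell to 3000 UMIs, which leaves fewer UMIs per sum, gave 951 higher and 919 lower between the classes, 282 positive and 452 negative against control, and 248 and 264 against adapted cells. Of the 4512 genes called between the classes 1785 were also called after thinning, all with the same sign. DESeq2 gave 603 negative genes against adapted cells, where edgeR gave 915, and the cause was not tested. With the replicate block that pairs the classes of a pool, 2465 genes were higher and 2306 lower, with 1238 and 1445 against control and 1165 and 1179 against adapted cells, and of the named genes it changed the call of GDF15 against control and of SPP1 against adapted cells.

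Leaving out 1 persister sum at a time gave 1795 to 1991 genes higher and 1515 to 1885 lower. Leaving out 1 sum of either condition gave 763 to 897 positive and 764 to 1037 negative genes against control, and 665 to 792 and 566 to 794 against adapted cells, the 764 and the 566 without the cycling persister sum of pool 2. The share of cycling cells stayed -35.8 to -32.0 points from control and the S phase share 2.62 to 4.37 points above it without 1 pool, and the S phase gap was 1.64 points among S and G2/M calls alone. CD44 changed sign against control with library totals alone (0.00792), uncalled under both scalings.

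Of the named genes' values between the classes, 1682 kept their call and direction and 22 lost the call. Besides those given above, the calls of DYNLL1, HLA-C, NPM1, NHP2 and XIAP were lost with library totals, those of MAD2L2, EBP, APAF1 and EMX2 after thinning, and those of HLA-C and XIAP without 1 persister sum. Of the differences, the calls of TPPP3 against control (-0.89, beside -0.88 with all UMIs) and of FOSL1 (-2.06 beside -2.02) and MAL (-2.98 beside -1.96) against adapted cells were lost after thinning though the differences were no smaller, and calls were lost for FOSL1 without the G1 persister sum of pool 1 and for MAL without the cycling or the G1 adapted sum of pool 1. Thinning also lost the calls of MCM10 (1.16, edgeR, Benjamini-Hochberg adjusted p = 0.552) and SPP1 (-1.55, adjusted p = 0.211) against adapted cells. That of SPP1 was lost as well without the cells richest in UMIs (-1.52, edgeR, Benjamini-Hochberg adjusted p = 0.102). The smaller cycling sums, at 2173494 and 2232492 UMIs, limit what can be called for low genes.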
